A study of Ovis aries with 8 samples.

Results

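COL3A1 and COL1A1 encode the chains of type III collagen and the main chain of type I collagen, the fibrillar collagens that make up most of the collagen of an artery wall. Their probes on a custom sheep Agilent array were taken by the gene name the array gives, or by its description where the name is a LOC number or an accession. They are 2 of the 690 genes that could be named on the array, and were read by 4 of its 15008 gene probes, 3 for COL3A1 and 1 for COL1A1, each printed as 1 spot. All 4 probes passed the filter on dim signals. The genes were chosen by their measured hypoxia minus normoxia differences in these same arrays, so that contrast is given below as a description, with no test of it.

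The arrays hold RNA from carotid arteries of sheep fetuses at day 140 of gestation, 1 array for each of 8 samples and 1 dye on each. In the normoxia group (4 arrays, numbered 1 to 4) the ewes lived at an elevation of 300 m, and in the hypoxia group (4 arrays, likewise numbered) they were kept at 3801 m from gestation day 30 until day 135. The titles of the hypoxia samples give 110 days of hypoxia. Each title names a fetus and a number, without saying whether the fetuses came from separate ewes. Arrays from fetuses of 1 ewe would not be independent, while the SE and limma p values below treat all 8 arrays as independent. The spread between arrays may also be partly technical. All 8 arteries carry no genetic change or drug that the labels name.

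Type III and type I collagen are trimers of long triple-helical chains that assemble outside the cell into shared fibrils. Type III collagen is built of identical COL3A1 chains, and most type I collagen pairs COL1A1 chains with a COL1A2 chain. In an artery they are laid down mainly by smooth muscle cells of the media and fibroblasts of the adventitia; type I fibrils give tensile strength, and type III is common in distensible tissues. TGF-beta ligands acting through SMAD proteins are known inducers of both genes. Enzymes such as MMP2 break collagen down, while decorin, biglycan and fibulin-1 bind fibrils or the neighbouring matrix.

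Values are log2 of the background-subtracted processed signal minus the array's own 75th percentile, called the log2 level below, so that 0 is the level of a probe at that percentile and 1 unit is a ratio of 2. The 75th percentile signal itself ran from 96.8 on hypoxia 1 to 1368.1 on normoxia 3, and the share of probes well above background from 59.4% on normoxia 4 to 94.8% on hypoxia 3. The arrays lie on 3 slides: slide 1 holds normoxia 1 with hypoxia 1, 2 and 3, slide 2 holds normoxia 2 with hypoxia 4, and slide 3 holds normoxia 3 and 4. Across the 11216 probes kept, limma called 0 between hypoxia and normoxia at a Benjamini-Hochberg adjusted p under 0.05, and 412 (3.67%) had an unadjusted p under 0.05. Of the markers that check the tissue, CNN1, MYL6 and MYLK, 3 smooth muscle genes, were at a log2 level of 3.90 or higher on every array.

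COL3A1 was read brightest by probe A_70_P006991, designed on a partial sheep mRNA clone of the gene. Its log2 levels in normoxia were -0.21, 0.10, 2.66 and -0.70 on arrays 1 to 4. In hypoxia they were 1.55, 2.05, 3.75 and 1.72. Normoxia 3 stood with the hypoxia arrays, above 3 of the 4, and the other 3 normoxia arrays lay below all 4 hypoxia arrays. The groups therefore overlapped through normoxia 3 alone, and 13 of the 16 comparisons of one hypoxia with one normoxia array were higher in hypoxia. The processed signal ran from 108 on normoxia 1 to 16509.5 on hypoxia 3, and the probe was well above background on 8 of 8 arrays. By rank within the array, which needs no scaling, it lay above 69% to 93.5% of probes in normoxia and above 87.7% to 97.2% in hypoxia. Mean log2 levels were 2.26 ± 1.01 in hypoxia and 0.46 ± 1.5 in normoxia (SD, n = 4 each). The difference, hypoxia minus normoxia, was 1.80 (SE 0.81), a ratio of 3.49.

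The other COL3A1 probes, A_70_P016306 and A_70_P016307, were designed on one shared expressed sequence tag, from a fracture callus library of adult sheep, and are not independent of each other. A_70_P016306 had log2 levels of -1.73, -2.65, -1.28 and -3.05 in normoxia and -2.49, -2.36, -0.02 and -1.74 in hypoxia. A_70_P016307 had -2.01, -2.72, -1.20 and -2.65 in normoxia and -2.62, -1.88, -0.06 and -1.84 in hypoxia. On both probes hypoxia 3 was the highest array, normoxia 3 came next, and the remaining arrays of the groups were mixed. The differences of the means were 0.52 (SE 0.64) for A_70_P016306 and 0.54 (SE 0.60) for A_70_P016307, each smaller than its SE. A_70_P016307 was well above background on 7 of 8 arrays, all but hypoxia 1, and A_70_P016306 on all 8.

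COL1A1 was read by the single probe A_70_P016376, designed on another tag of the callus library. Its log2 levels were -3.91, -3.47, -2.87 and -3.69 in normoxia. In hypoxia they were -2.64, -3.86, -1.35 and -2.27. Hypoxia 2 lay among the normoxia arrays and the other 3 hypoxia arrays above all of them. Means were -2.53 ± 1.04 in hypoxia and -3.49 ± 0.45 in normoxia (SD, n = 4 each), and the difference was 0.95 (SE 0.53), a ratio of 1.94. The signal was dim: 8.27 on normoxia 1, where the software's own error estimate was 3.97, up to 482 on hypoxia 3. It was well above background on 3 of 4 arrays in each group, and not on normoxia 1 and hypoxia 1. With normexp background correction, which starts from the mean spot signal and its local background, the COL1A1 difference turned to -0.14 and that of A_70_P016306 to -0.05, while that of A_70_P016307 was 0.02 and that of A_70_P006991 was 1.25. That setting also moved the median difference of all probes from -0.02 to -0.31. Relative to that median COL1A1 was at 0.17, A_70_P016306 at 0.26, A_70_P016307 at 0.33 and A_70_P006991 at 1.56.

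**Figure D1:**
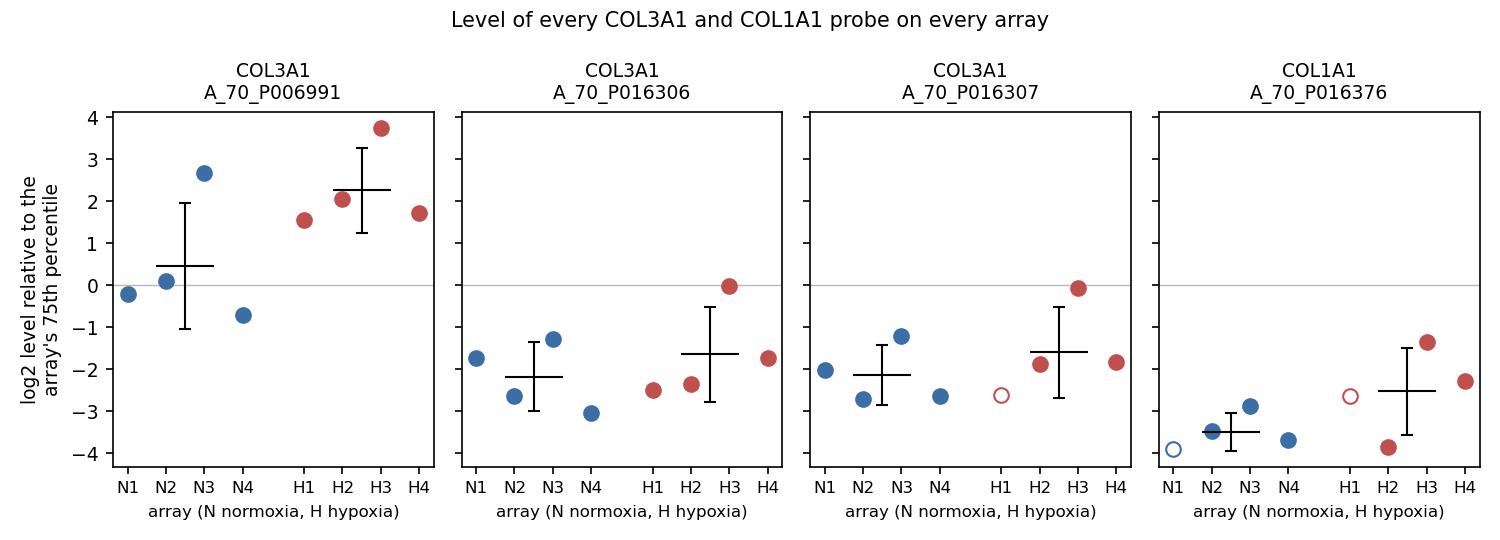
Log2 level relative to the array's 75th percentile (vertical axis) of each of the 4 probes on each of the 8 arrays (N normoxia, H hypoxia, numbered 1 to 4); filled points were well above background, open points were not, and the black bars are the mean ± SD of 4 arrays. Hypoxia 3 is the highest array on all 4 probes, and A_70_P006991 shows the widest gap between the groups, with normoxia 3 at 2.66 inside the hypoxia range; with normexp correction (not plotted) the differences of COL1A1 and A_70_P016306 are -0.14 and -0.05, beside -0.31 for the median probe.

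All 4 probes were higher on average in hypoxia, against 48.3% of the kept probes, a share that the choice of these genes fixes in part. None of the 4 had groups that did not overlap, which 1.73% of kept probes had in the higher direction. All 4 were highest of all 8 arrays on hypoxia 3, as were 13.7% of kept probes. In both groups the array numbered 3 had the highest log2 level for all 4 probes, which held for 10.9% of kept probes. By rank within the array it was also highest, except for COL1A1 in normoxia. There COL1A1 lay above 38.9% of probes on normoxia 3, beside 45.9% on normoxia 2 and 41.2% on normoxia 4. The 75th percentile signal was also highest on the arrays numbered 3, at 1229.2 on hypoxia 3 and 1368.1 on normoxia 3. The part of signal strength in the collagen levels was not tested. Without both arrays numbered 3, a setting chosen after seeing the data, the differences were 2.04 for A_70_P006991, 0.28 for A_70_P016306, 0.35 for A_70_P016307 and 0.77 for COL1A1.

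Arrays of the same number deviated together over all kept probes, so same-numbered arrays were set side by side. No label pairs them, and arrays of different numbers were not compared in this way. The 75th percentile signal of normoxia and hypoxia was 124 and 96.8 for number 1, and 1368.1 and 1229.2 for number 3. It was 599 and 343 for number 2, and 391 and 865 for number 4. The part of signal strength in the shared deviation was not tested. A_70_P006991 was higher in the hypoxia array of every pair, by 1.75, 1.95, 1.09 and 2.41 for numbers 1 to 4, as were 13.8% of kept probes. A_70_P016306 differed by -0.75, 0.29, 1.25 and 1.31, and A_70_P016307 by -0.61, 0.84, 1.14 and 0.81. Pair 1 was the only pair in which these probes were lower in hypoxia. COL1A1 differed by 1.27, -0.39, 1.52 and 1.42, and was lower in hypoxia in pair 2 alone. In pair 1 COL1A1 was well above background on neither array, and A_70_P016307 was not on hypoxia 1. Their differences in that pair are therefore uncertain. All 4 probes were thus higher in at least 3 of 4 pairs, as were 36.4% of kept probes. With the number as a block, 1331 probes had an unadjusted p under 0.05 in place of 412, and 0 passed at an adjusted p under 0.05.

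**Figure D2:**
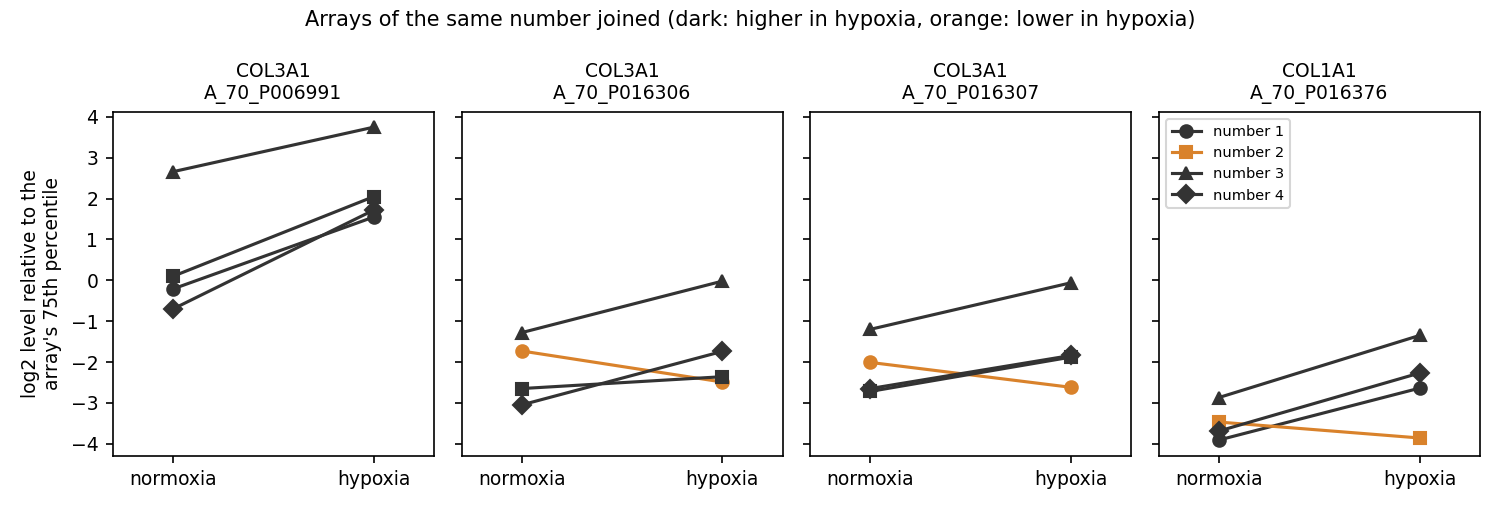
Log2 level relative to the array's 75th percentile (vertical axis) of each probe, with the normoxia and hypoxia arrays of the same number joined by a line; dark lines go up in hypoxia, orange lines go down. All 4 lines of A_70_P006991 go up, by 1.09 to 2.41, and each other probe has 1 line that goes down.

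Within slide 1, where 1 normoxia array met 3 hypoxia arrays, A_70_P006991 was higher in hypoxia by 2.65, A_70_P016306 by 0.11, A_70_P016307 by 0.49 and COL1A1 by 1.29. Within slide 2, with 1 array of each group, the differences were 1.62, 0.91, 0.87 and 1.21 in the same order. Slide 3 holds normoxia arrays alone, and its level cannot be told apart from that of the group. All 4 probes were higher in hypoxia on both slides that could be compared, a result that the choice of these genes fixes in part. The median difference of all probes was -0.17 within slide 1 and 0.01 within slide 2. The share of kept probes higher on both slides was not computed. On normoxia 1, the only normoxia array of slide 1, COL1A1 was not well above background, so its difference there is uncertain.

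The 3 COL3A1 probes did not give one size for the difference. The probes from the shared tag differed from each other by at most 0.48 in log2 level on any array, with a Pearson r of 0.961 and a Spearman rho of 0.905 over 8 arrays. Leaving out the 2 arrays farthest from the median gave r = 0.884. A_70_P006991 followed them less closely, with r = 0.78 and rho = 0.738 against A_70_P016306 (r = 0.357 without 2 arrays). Against A_70_P016307 it gave r = 0.83 and rho = 0.857 (r = 0.626 without 2 arrays). The points of these correlations share the scaling of each array.

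A gap between probes of one gene is common on this array, and that of COL3A1 was among the larger ones. The hypoxia difference of A_70_P006991 and that of A_70_P016306 lay 1.28 apart. Among 287 pairs of probes of other genes designed on the same sequence, the median gap was 0.15, and 1.74% had a gap of at least 1.28. Among 38 pairs of the same gene designed on different sequences, as these are, the median gap was 0.37 and 10.5% reached 1.28. The ratio of A_70_P006991 to the mean of the other COL3A1 probes was itself not constant. On the log2 scale it was 1.67, 2.78, 3.89 and 2.15 in normoxia, and 4.10, 4.17, 3.79 and 3.51 in hypoxia. It was low on normoxia 1, 2 and 4, and between 3.51 and 4.17 on normoxia 3 and all hypoxia arrays.

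The ratio of type III to type I collagen was taken on each array as the log2 level of a COL3A1 probe minus that of COL1A1. Its size depends on how strongly each probe binds, so only its variation between arrays is read. COL1A1 was not well above background on normoxia 1 and hypoxia 1, nor was A_70_P016307 on hypoxia 1, so the ratios on those arrays are uncertain. With A_70_P006991 it was 3.70, 3.57, 5.53 and 2.99 in normoxia. In hypoxia it was 4.19, 5.91, 5.10 and 3.98. Normoxia 3 and hypoxia 2 were the highest arrays and the groups overlapped. The ratio spanned 2.92 log2 units over the 8 arrays, a 7.55-fold range, and was 0.85 higher in hypoxia (4.80 ± 0.89 against 3.95 ± 1.10, SD, n = 4 each). The hypoxia array was higher in 3 of 4 pairs, and the difference was 1.36 within slide 1 and 0.41 within slide 2.

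With the other COL3A1 probes the difference in this ratio was below 0, most strongly in pair 1. With A_70_P016306 it was 2.18, 0.82, 1.60 and 0.64 in normoxia and 0.16, 1.49, 1.33 and 0.53 in hypoxia, a difference of -0.43. With A_70_P016307 it was 1.90, 0.76, 1.68 and 1.04 in normoxia and 0.03, 1.98, 1.29 and 0.42 in hypoxia, a difference of -0.41. Both were higher in hypoxia in 1 of 4 pairs, pair 2, where the COL1A1 level of hypoxia 2 was low. Pair 1 differed most, by -2.02 and -1.87. Pairs 3 and 4 were also below 0, at -0.27 and -0.11 with A_70_P016306 and at -0.38 and -0.61 with A_70_P016307. Without both arrays numbered 1, a setting chosen after seeing the data, the ratio with the mean of these probes differed by 0.09, and that with A_70_P006991 by 0.97. The former was also above 0, at 0.13, with normexp background correction, and ran from -0.70 to -0.15 with single arrays left out. With the mean of the 3 COL3A1 probes the ratio was 2.20 ± 0.79 in hypoxia and 2.20 ± 0.67 in normoxia (SD, n = 4 each), a difference of 0.00. This difference was 0.55 with normexp and 0.38 without both arrays numbered 1. The mean of the 3 probes was -0.33 ± 1.06 in hypoxia and -1.29 ± 0.96 in normoxia (SD, n = 4 each), a difference of 0.96 beside 0.95 for COL1A1.

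**Figure D3:**
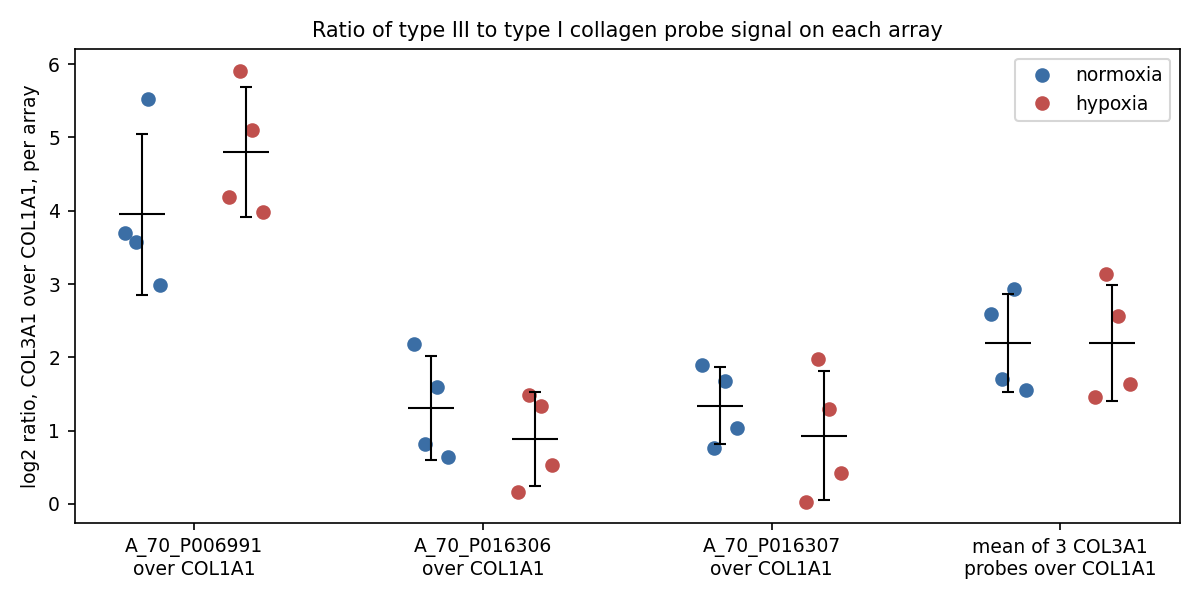
Log2 ratio of COL3A1 to COL1A1 on each array (vertical axis), computed with each COL3A1 probe in turn and with the mean of the 3 (horizontal axis); points are arrays, black bars the mean ± SD of 4. The hypoxia mean is 0.85 above normoxia with A_70_P006991, 0.43 and 0.41 below it with the other probes, and level with it for the mean of the 3. Without both arrays numbered 1 (not plotted) the other 2 probes together give 0.09 in place of a negative difference. With single arrays left out they give -0.70 to -0.15.

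The likeness of COL1A1 to the COL3A1 probes across the arrays rested largely on 2 arrays in each case, hypoxia 3 among them. A_70_P006991 and COL1A1 had r = 0.757 and rho = 0.595 over 8 arrays, and r = 0.491 without the 2 arrays farthest from the median. A_70_P016306 and COL1A1 had r = 0.743 and rho = 0.357, and r = 0.245 without 2 arrays. A_70_P016307 and COL1A1 had r = 0.69 and rho = 0.5, and r = 0.162 without 2 arrays.

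Of 537 other named genes with a kept probe, those whose pattern over the 8 arrays was most like A_70_P006991 were CTSF, FBLN1 and PSMD4. CTSF, the lysosomal protease cathepsin F, had r = 0.963 (rho = 0.952, and r = 0.941 without the 2 farthest arrays). FBLN1, the matrix protein fibulin-1, had r = 0.954 (rho = 0.929, r = 0.888 without 2), and PSMD4, a ubiquitin receptor of the proteasome, had r = 0.916. The median r over the 537 genes was 0.0952. FBLN1 shared the high normoxia 3: its log2 levels were -0.17, 0.28, 2.21 and -0.44 in normoxia and 0.89, 0.70, 2.65 and 1.05 in hypoxia. Nearest to COL1A1 were BMP6, a TGF-beta family ligand, with r = 0.926, GRPEL1, a mitochondrial import factor, with r = 0.881, and HSP90AA1, a heat shock chaperone, with r = 0.839. These genes were picked for their likeness, so the r values only describe them.

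Other collagen and matrix genes were read from lists of 177 genes, of which 43 had a named probe and 35 a kept one. None of the 9 other fibrillar collagen genes listed, COL1A2 among them, had a named probe here. Of the 35 genes, 20 were higher and 15 lower in hypoxia, where 48.3% of kept probes were higher. Their median difference was 0.12 beside -0.02 over all kept probes, and 0 passed at an adjusted p under 0.05 by limma. With an unadjusted p under 0.05 there was 1, TGFB3, beside 3.67% of all kept probes. With the replicate number as a block there were 7 of 35, where 1331 of 11216 probes had such a p. There were 4 without normoxia 3, where 613 of 11216 probes had such a p, and 0 with slide as a block, where 200 probes had.

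The ligand TGFB3 was 1.35 (SE 0.39) higher in hypoxia (limma unadjusted p = 0.00858, adjusted p = 0.998), with 0.66 ± 0.37 against -0.69 ± 0.68 (SD, n = 4 each). SMAD4, the shared partner of the signalling SMADs, differed by 0.55 (SE 0.41). Of the 20 TGF-beta family members and other regulators, 14 were higher and 6 lower, where 48.3% of kept probes were higher. Most of these differences were smaller than their SE, among them HIF1A at 0.73 (SE 1.29) and EPAS1 at 0.01 (SE 0.96). The kept EPAS1 probes did not give one size. A_70_P002841 differed by 1.01 (SE 0.74), A_70_P002842 by 0.88 (SE 0.78) and A_70_P014652 by -0.03 (SE 1.32). A_70_P002841 and A_70_P002842 were each well above background on 1 of 4 normoxia arrays. Both non-fibrillar collagens kept were lower: COL4A3, a basement membrane chain, by -1.36 (SE 1.68), and a probe named COL6A1, whose description gives the alpha 3 chain of type VI collagen, by -0.33 (SE 0.66). Each spread widely between arrays. COL4A3 was well above background on 2 of 4 hypoxia arrays, and the probe named COL6A1 on 2 of 4 arrays in each group. The difference was 0.02 for COL4A3 without hypoxia 4, and 0.02 for COL6A1 without normoxia 2.

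Genes that act on the protein after its synthesis gave no call at an adjusted p under 0.05 by limma. HSPA5, a chaperone of the endoplasmic reticulum, differed by 0.60 (SE 0.58) and PPIB, a prolyl isomerase that helps collagen fold, by -0.04 (SE 0.25). Of 6 breakdown genes and inhibitors 2 were higher, where 48.3% of kept probes were: the gelatinase MMP2 by 0.84 (SE 0.51) and the lysosomal protease CTSB by 0.65 (SE 0.36). The other 4 were lower, among them the inhibitor TIMP1 by -0.60 (SE 0.39). The other kept TIMP1 probe differed by -0.49 (SE 0.41). Both TIMP1 probes were higher in 0 of 4 pairs, a share not computed over all kept probes. HSPA5, MMP2, CTSB and FBLN1 were each higher in hypoxia in 4 of 4 pairs, as were 13.8% of kept probes. The other kept MMP2 probe, A_70_P026547, differed by 0.20 (SE 0.45) and was higher in 2 of 4 pairs. The other kept probes of HSPA5 and FBLN1 were higher in 4 of 4. The fibril-binding proteoglycans DCN (decorin) and BGN (biglycan) differed by -0.15 (SE 0.75) and -0.05 (SE 0.40). FBLN1 differed by 0.85 (SE 0.68), and the receptor chains ITGB1 and ITGAV by 0.29 (SE 0.91) and 0.06 (SE 0.29). Directions of PPIB, ITGAV, BGN and DCN changed under several of the settings tried.

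**Figure D4:**
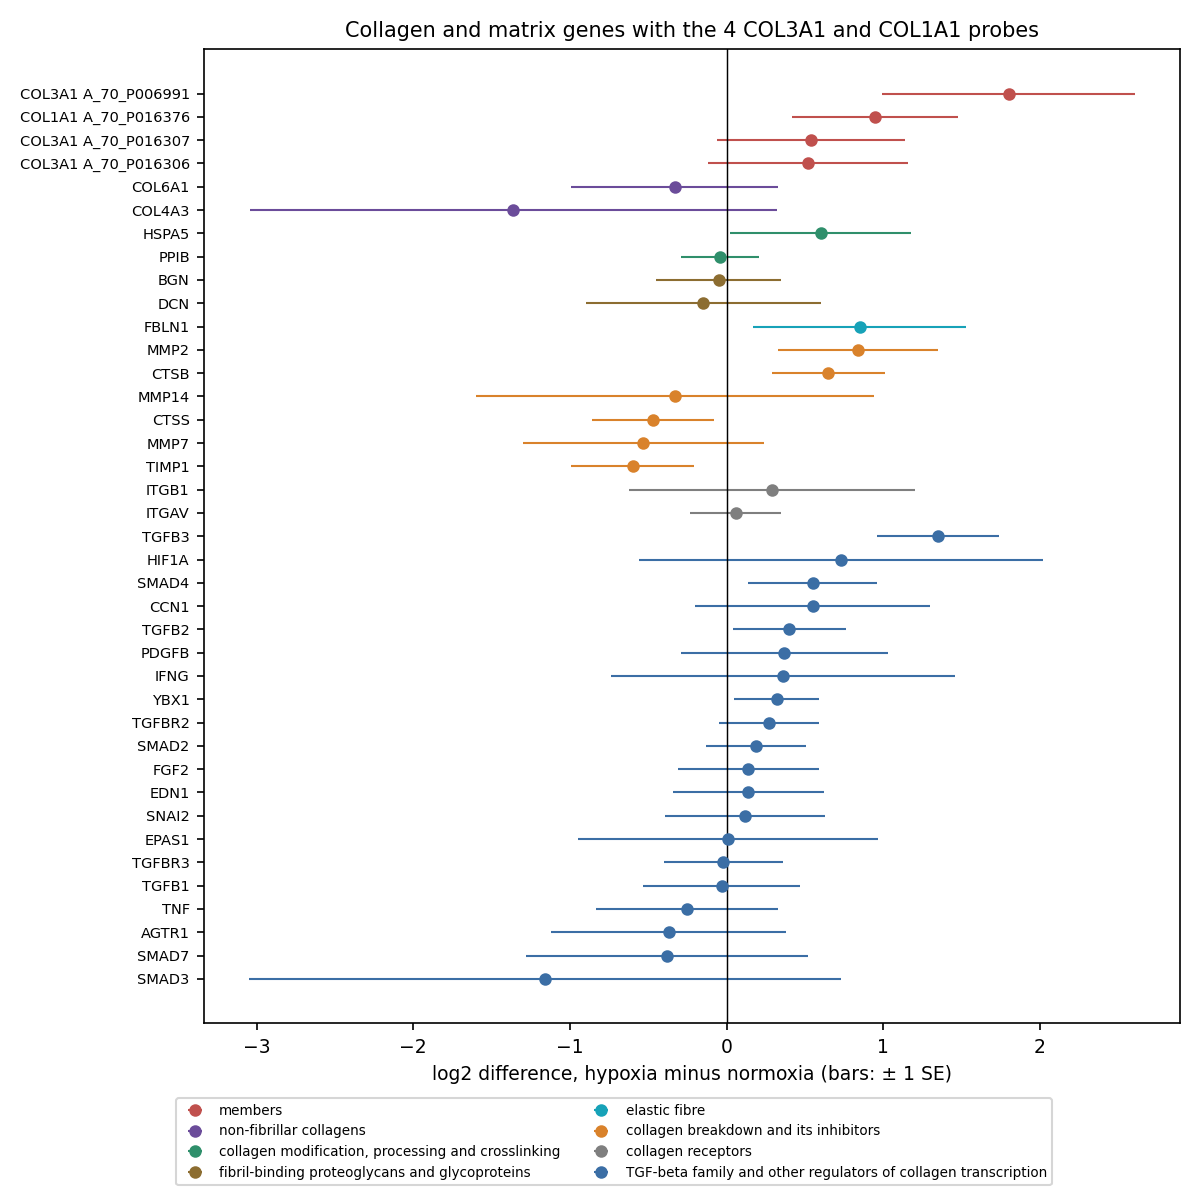
Difference in log2 level, hypoxia minus normoxia (horizontal axis, bars ± 1 SE), of the 4 COL3A1 and COL1A1 probes and of the 35 other collagen and matrix genes, coloured by list. A_70_P006991 at 1.80 has the largest difference drawn, and TGFB3 at 1.35 has the shortest bar relative to its size; with normexp correction (not plotted) COL1A1 and A_70_P016306 go below 0 but stay 0.17 and 0.26 above the median probe.

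The artery samples are whole tissue, so more cells that make collagen and more collagen RNA per cell cannot be told apart. Of 7 fibroblast markers listed, only DCN had a kept probe; its log2 levels were 5.86, 4.90, 5.97 and 4.57 in normoxia and 7.45, 4.29, 4.41 and 4.53 in hypoxia. DCN was highest on hypoxia 1, where the smooth muscle gene CNN1 was lowest at 4.99, beside 7.08 to 8.68 on the other arrays. On hypoxia 3, where all 4 collagen probes were highest, DCN was at 4.41 and CNN1 at 7.63. Over the 3 smooth muscle markers kept of 11 the median difference was -0.60, with CNN1 at -0.62, MYLK at -0.60 and MYL6 at -0.37. Summed over these 3 markers, log2 levels ran from 7.67 to 9.78 in hypoxia and from 8.72 to 10.22 in normoxia. Over the 4 endothelial markers kept of 8 the median difference was 0.96, with TIE1 at 2.14, NOS3 at 1.12, KDR at 0.81 and FLT1 at -0.91. The summed log2 level of these markers was -0.87 to 1.13 in hypoxia and -1.44 to 0.53 in normoxia. That sum was highest on hypoxia 2, where A_70_P006991 was at 2.05 and COL1A1 at -3.86. TIE1 was well above background on 3 hypoxia arrays and 1 normoxia array, and was lowest on hypoxia 4, at -6.16. All 6 leukocyte markers kept of 11 were lower on average in hypoxia, by a median of -0.71, with sums of -0.22 to 1.46 in hypoxia and 0.77 to 1.72 in normoxia. The part of these cell types in the collagen levels was not tested. Without hypoxia 1 the differences were 2.04 for A_70_P006991, 0.80 for A_70_P016306, 0.88 for A_70_P016307 and 0.99 for COL1A1.

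Single arrays moved the sizes but seldom the direction. Leaving out each array in turn, the difference of A_70_P006991 ran from 1.31 without hypoxia 3 to 2.53 without normoxia 3. That of COL1A1 ran from 0.56 without hypoxia 3 to 1.40 without hypoxia 2. A_70_P016306 ran from -0.02 without hypoxia 3 to 0.83 without normoxia 3, and A_70_P016307 from 0.03 to 0.88. The brightest probe was thus higher in hypoxia without any single array, while the difference of the shared-tag probes was near 0 without hypoxia 3.

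**Figure D5:**
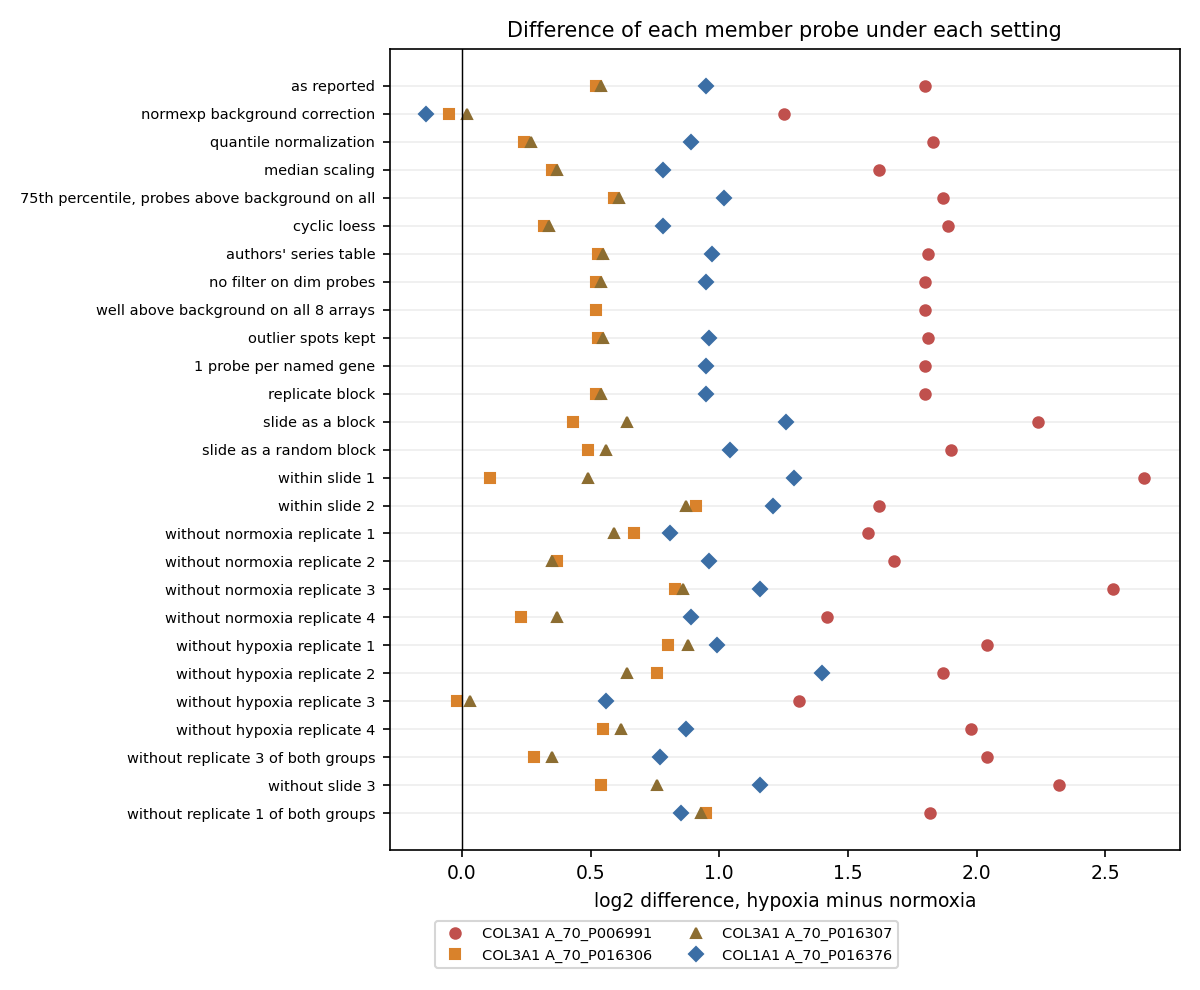
Difference in log2 level, hypoxia minus normoxia (horizontal axis), of each of the 4 probes under each way of processing the arrays or leaving arrays out (vertical axis). A_70_P006991 lies between 1.25 and 2.65 in every setting drawn, while COL1A1 goes to -0.14 with normexp background correction and A_70_P016306 to -0.05 there, where the median probe is at -0.31, and to -0.02 without hypoxia 3.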

How the data were processed

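Gene expression was measured on 8 Agilent 1-colour arrays of design 019921. Per the file headers, the authors deposited Feature Extraction 9.5.3.1 output (protocol GE1-v5_95_Feb07), with spot intensity columns for mean, local background and processed signal. The authors' deposited series table holds a linear ratio per probe, which matched the processed signal over each array's 75th percentile. From the processed intensity, log2 values minus the array's 75th percentile were computed here. Outlier spots and 536 control spots were left out; 72 probes without a value on every array were dropped, and probes well above background on at least 4 of 8 arrays were kept. Of 15008 probes, 1203 could be named, from the files and from a RefSeq gene table used for names only.

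Hypoxia was compared with normoxia with limma 3.58.1 (R 4.3.3) across 11216 probes, with Benjamini-Hochberg adjustment, after tests of the code on simulated data. The simulated arrays varied independently of each other. Those tests therefore cannot show how the fit behaves where arrays deviate together or share a slide. The members and lists were chosen with earlier results of these data known. Named are every member probe, from each list the 2 genes with the smallest unadjusted p and any past the threshold, and the 3 genes most like each member. A gene is represented by its brightest kept probe. Deviations from the group means correlated between same-numbered arrays at 0.82, 0.726, 0.584 and 0.434, each over 0.1; on that basis, which rests on the values and on no label, same-numbered arrays were treated as pairs. The number of arrays limits the precision. Alternatives changed the background correction, scaling, filter, blocks, slides and arrays. Adult arteries named in the series' design text were not analysed here.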

Additional observations from a re-analysis of the deposited data

Results flagged for a closer look

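Of 54 groups of 4 arrays examined, 5 held an array whose gap to its nearest neighbour took more of the group's range than Dixon's critical value; chance gives this in about 1 in 20 groups. None was a COL3A1 or COL1A1 probe or a ratio of them. DCN, the proteoglycan decorin, was at a log2 level of 7.45 on hypoxia 1, with the other hypoxia arrays between 4.29 and 4.53. BGN, biglycan, was at 4.33 on normoxia 1, with the others between 5.54 and 5.63. ITGB1, the integrin beta 1 chain, was at 0.79 on normoxia 1, with the others between 3.36 and 3.78. PSMD4, whose pattern was among the nearest to COL3A1 probe A_70_P006991, was at 0.49 on normoxia 3, with the others between -0.43 and -0.37. HSP90AA1, among the nearest to COL1A1, was at 1.58 on hypoxia 2, with the others between 2.53 and 2.69.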

How the results depend on the processing

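The difference of COL3A1 probe A_70_P006991 was positive under all 26 alternatives that kept the probe, from 1.25 (normexp) to 2.65 (within slide 1), and its replicate block value was 1.80. With A_70_P016306 or A_70_P016307 in its place the COL3A1 difference was 0.52 or 0.54, and the ratio of COL3A1 to COL1A1 went from 0.85 to -0.43 or -0.41, and to 0.00 with the mean of the probes. COL1A1 turned to -0.14 with normexp, where the median of all probes was -0.31, so that COL1A1 lay 0.17 above that median; the cause was not tested. Median scaling moved the median of all probes to -0.20. Leaving out single arrays gave 1.31 to 2.53 for A_70_P006991, 0.56 to 1.40 for COL1A1 and 0.48 to 1.37 for the ratio with the brightest probe. The count of probes with an adjusted p under 0.05 was 0 in every fit run, those without a single array included. At an unadjusted p under 0.05, 412 probes (80.8% higher in hypoxia) became 24 (37.5% higher) with normexp, 134 with median scaling, 200 (70.5% higher) with slide as a block, 502 (69.7% higher) with cyclic loess, 1331 with the replicate block, 233 without slide 3, and 173 to 613 without single arrays (with normoxia 2 left out 250, with normoxia 4 left out 181, with hypoxia 2 left out 258 and with hypoxia 3 left out 173). Requiring all 8 arrays above background removed A_70_P016307 and COL1A1. Of the 18 other genes named, 10 kept their direction under every alternative. Collagen and matrix genes higher in hypoxia were 20 of 35, beside 48.3% of kept probes, and 13 with normexp, where the median of all probes was -0.31. Pairing by number changed no call at an adjusted p under 0.05. Of these 35 genes 7 in place of 1 had an unadjusted p under 0.05 with the replicate block, where 1331 of 11216 probes had one. There were 4 without normoxia 3, where 613 probes had one, and 0 with slide as a block, where 200 had one. Without both arrays numbered 1, the ratio with the other 2 COL3A1 probes was 0.09.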
